A study of Saccharomyces cerevisiae with 36 samples.

Results

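The budding yeast deletion strains cus2, snu40 and hsp104 gave almost no departure from wild type on a microarray that reads splicing at 230 introns. They were chosen from the measured values, as the strains with the fewest calls among 18 mutants, and account for 6 of the 36 arrays, 2 per strain. Over introns, splice junctions and exon values together, cus2 and hsp104 had 0 calls and snu40 had 1. The next fewest were 12 in nam8 and 74 in ecm2, just outside the choice. The counts that led to the choice are given below as a description and support nothing by themselves.

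Total RNA of each mutant was hybridised together with RNA of the wild type BY4741, a standard laboratory strain, and the labels give growth at 26 °C. On array 1 of a strain the mutant RNA was in channel 2, and on array 2 it was in channel 1. The labels name each strain by its deleted gene alone, and give neither the number of clones nor whether the 2 arrays came from separate cultures, so the errors hold array-to-array differences that may be technical alone. The deletion strains msl1 and snu66, used for direct comparison, were grown and hybridised in the same way, as were the other strains in the fit except prp4-1a and dbr1. The first is a temperature-sensitive allele that, with its own wild type SS330, was moved from 26 to 37 °C for 2 h. For dbr1 the labels describe mixed RNA of haploid and diploid cells, part of them sporulating, and give no temperature.

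Splicing removes introns in a large RNA-protein machine, the spliceosome, assembled from small nuclear ribonucleoprotein particles (snRNPs). Cus2 is a U2 snRNP-associated protein that helps U2 RNA take its active fold before the branch site is engaged. Snu40, listed as LIN1 in the gene table used here, is a non-essential protein found with the U5 snRNP. Hsp104 is a disaggregase that pulls proteins out of heat-induced aggregates, and it is not a spliceosome component. Msl1 is a core protein of the U2 snRNP, with which Cus2 associates. Snu66 is a protein of the U4/U6.U5 tri-snRNP, a larger particle that also holds U5.

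Each intron was read by a probe in the intron, one across the joined exons and one in an exon, with roles inferred from the order of the probes. All values are deposited log2 ratios, with the mutant set over the wild type. For the intron index the exon probe's value was subtracted from that of the intron probe, so it is higher where unspliced RNA or excised intron makes up more of a gene's RNA, and also where the exon probe is lower. The junction index, formed in the same way from the junction probe, is a measure of spliced RNA. The exon value follows all RNA of a gene. Errors after ± are standard errors from 1 limma fit of all 36 arrays, with n = 2 arrays per strain. Values given for single arrays were not corrected for the dye difference described below, which can set the 2 arrays of a strain apart. A call is an adjusted p under 0.05 within a strain and measure.

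None of the genes CUS2, SNU40 and HSP104 had a probe on the array, so the deletions could not be checked in these strains. The direction of the ratio is not settled by the labels and was read from strains whose deleted gene was probed. The MUD1 exon probe was at −2.56 ± 0.10 (SD, n = 2) in mud1, and that of STO1 at −5.59 ± 0.31 in gcr3, the strain lacking STO1. In the 6 arrays MUD1 stayed between −0.48 and 0.36 and STO1 between −0.48 and 0.39. Pairs of arrays with the same channel for the mutant were correlated over all probes where at least 1 of the 6 arrays took part. Of these 96 pairs 3 were below −0.3, all with the mutant in channel 2. They were prp4-1a with hsp104 at −0.43, prp4-1a with cus2 at −0.40 and hsp104 with snu17 at −0.36. Read the other way, every sign below turns: the KEI1 exon value of snu40 would be 0.61 in place of −0.61, and the median intron index of snu40 −0.087 in place of 0.087. Usable spots numbered 2176 to 2537 on the 6 arrays, against 2127 to 2792 over all 36.

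At introns, the measure that follows unspliced RNA most directly, the 3 strains had no call. In cus2 0 of 196 introns tested passed the threshold (0%), in snu40 0 of 186 (0%) and in hsp104 0 of 204 (0%). At an unadjusted p under 0.05 there were 5 in cus2 (2.55%), 7 in snu40 (3.76%) and 0 in hsp104 (0%). The median intron index was −0.0086 in cus2, 0.087 in snu40 and −0.0035 in hsp104. Each rested on 2 arrays that differed: without array 1 or array 2 of the strain the median was 0.071 or −0.066 in cus2, 0.12 or 0.053 in snu40, and −0.016 or −0.0040 in hsp104. Single introns spanned −0.40 to 0.50 in cus2, −0.17 to 0.50 in snu40 and −0.37 to 0.33 in hsp104. The SD over introns was 0.157, 0.136 and 0.111, below the lowest SD of the other 15 strains, 0.272.

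**Figure D1:**
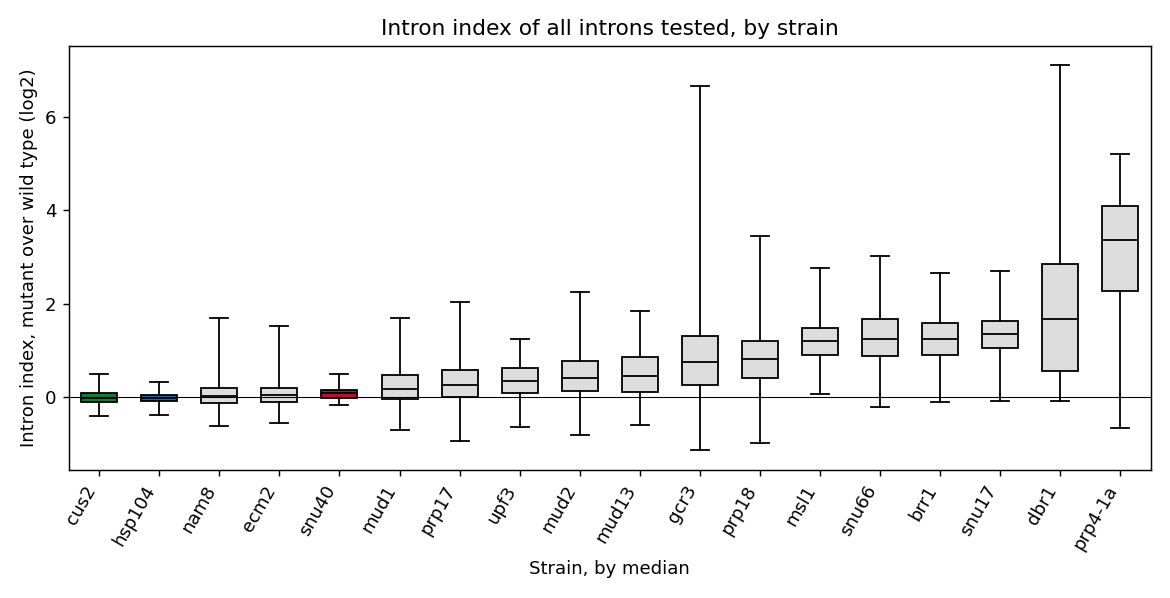
Intron index (log2, mutant over wild type) of all introns tested in each of 18 strains, ordered by median. Boxes show the quartiles with the median and whiskers reach the lowest and highest intron, and cus2 (green), hsp104 (blue) and snu40 (red) have the narrowest ranges, with snu40 centred at 0.087.

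The width of the intervals at the introns tested is given as a description, since strains chosen for few calls have intervals near 0 by construction. The 95% interval of every intron tested lay inside ±1 on the log2 scale in cus2 (196 of 196), snu40 (186 of 186) and hsp104 (204 of 204). Inside ±0.5 it lay for 84 introns in cus2 (42.9%), 78 in snu40 (41.9%) and 112 in hsp104 (54.9%). The median half-width was 0.40 in each strain, so at a typical intron an index under 0.40 could not be told from 0. Junctions and exon values were measured more tightly: 186 of 208 junction intervals lay inside ±0.5 in cus2, 194 of 212 in snu40 and 198 of 214 in hsp104, and 209 of 223, 200 of 223 and 214 of 224 exon intervals. These intervals take no account of the number of introns, and the introns without a usable value on both arrays were not tested.

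The junction probes showed as little. Calls were 0 of 208 in cus2 (0%), 0 of 212 in snu40 (0%) and 0 of 214 in hsp104 (0%), and at an unadjusted p under 0.05 there were 2 (0.962%), 1 (0.472%) and 0 (0%). The highest junction index in cus2 was that of YSC84, an actin-binding protein gene, at 0.38 and 0.30 on the 2 arrays. In snu40 RFA2, a subunit gene of the single-stranded DNA-binding complex RPA, was highest at 0.29 and 0.19. In hsp104 the range ran from MOB1 at −0.18 to RPL6A at 0.20.

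Exon values gave the single call. In cus2 0 of 223 passed (0%), in snu40 1 of 223 (0.448%) and in hsp104 0 of 224 (0%). At an unadjusted p under 0.05 there were 8 in cus2 (3.59%), of which 5 were below 0, and 19 in snu40 (8.52%), all 19 below 0. In hsp104 there were 0 (0%). Without either snu40 array the count in snu40 was 0.

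The gene called was KEI1, which encodes the regulatory subunit of inositol phosphorylceramide synthase, an enzyme of sphingolipid synthesis in the Golgi. In snu40 its exon value was −0.46 on array 1 and −0.75 on array 2, a mean of −0.61 ± 0.10 (adjusted p = 0.000373 in limma, a part of the values behind the choice of strains). Its junction probe was also low on both arrays, at −0.55 and −0.82, while the intron probe gave 1 usable array, at −0.013. Both arrays were therefore below 0 at the probes for spliced and for total KEI1 RNA. In cus2 the exon arrays were at 0.16 and −0.14, and in hsp104 at 0.088 and 0.029, neither overlapping with snu40.

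KEI1 was not particular to snu40. Its exon value was called in 6 of the 18 strains, at −0.95 in prp17, −0.75 in prp4-1a, −0.71 in snu17, −0.61 in snu40, −0.48 in prp18 and −0.33 in ecm2. The highest was 0.22 in dbr1. In snu66 both arrays were above 0, at 0.18 and 0.17. The fitted difference in KEI1 exon value between snu66 and snu40 was 0.78 ± 0.14.

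**Figure D2:**
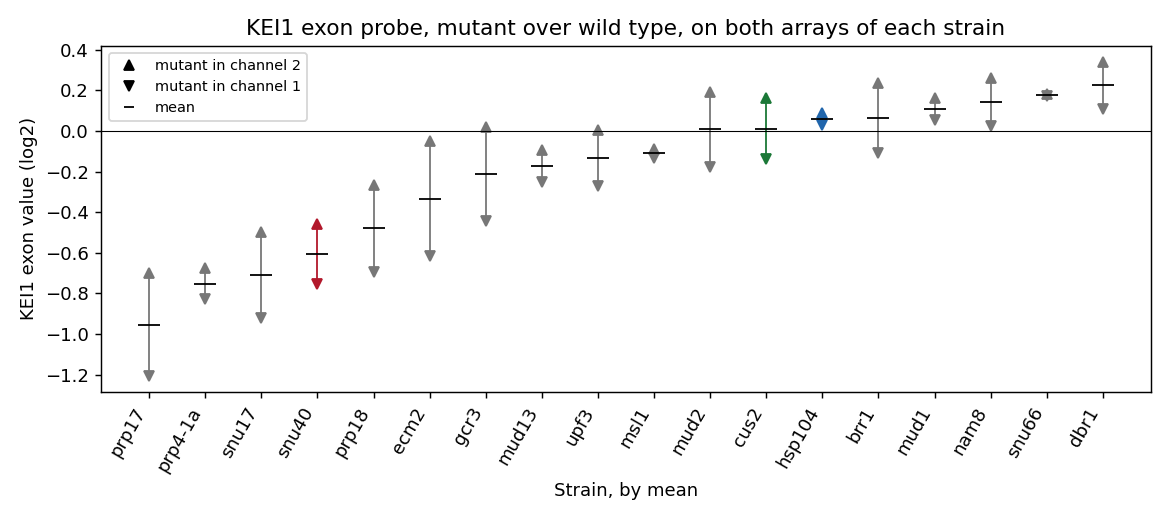
KEI1 exon value (log2, mutant over wild type) on the 2 arrays of each of 18 strains, ordered by mean, with triangles up for the mutant in channel 2, triangles down for channel 1 and a bar at the mean. The snu40 arrays (red, −0.46 and −0.75) lie among those of prp17, prp4-1a, snu17 and prp18, apart from cus2 (green) and hsp104 (blue).

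The other low exon values of snu40 lay mostly in genes outside the ribosome. UBC8, which encodes a ubiquitin-conjugating enzyme, was at −0.32 and −0.56, a mean of −0.44 ± 0.12. AIM11, a gene named for an effect on mitochondrial inheritance, was at −0.28 and −0.59, a mean of −0.44 ± 0.12. MEI4, needed for meiotic recombination, had −0.51 and −0.20. These genes were low on both arrays but did not pass the adjusted threshold. UBC8 and AIM11 were not particular to snu40. UBC8 was called in 9 of the 18 strains, from −0.86 in brr1 to 1.03 in prp18. AIM11 was called in 2 and was lowest in prp17, at −0.57.

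COX5B, the low-oxygen form of a cytochrome c oxidase subunit, had exon values of −0.19 and −0.50 in snu40, and −0.23 and −0.26 in hsp104. It was called in 9 of the 18 strains, with means from −1.62 in prp4-1a to 0.60 in mud13. UBC5, another ubiquitin-conjugating enzyme gene, had −0.078 and −0.59 in snu40. MRPL44, a mitochondrial ribosomal protein gene, had −0.21 and −0.44. Their arrays spread widely, UBC5 most of these 3, but all 6 snu40 values were below 0. The 96 ribosomal protein genes had a median exon value of 0.049 in snu40, against −0.12 for the 127 other genes. The same medians were 0.078 and 0.016 in cus2, and 0.054 and 0.048 in hsp104. The gap of 0.17 in snu40 was smaller than in the strains next in number of calls, 0.23 in nam8 and 0.30 in ecm2.

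By gene list, snu40 exon values had their lowest median in genes of the ubiquitin and proteasome systems, at −0.24 against −0.017 over all genes. Of these 9 genes 1 was above 0, and 5 had an unadjusted p under 0.05, against 19 of all 223 (8.52%). Of the 96 ribosomal protein genes 0 did, so the 19 lay among the 127 others and 8.52% is a low reference. The list itself was not tested. Besides UBC8, UBC5 and UBC13, the 9 genes include UBC12 and DCN1, which act in attaching the ubiquitin-like protein Rub1, at −0.25 and −0.24. Secretion genes had a median of −0.15, with 2 of 18 above 0 and the vesicle-fusion gene NYV1 lowest at −0.28. Among cytoskeleton genes 3 of 11 lay above 0, with CIN2, a tubulin-folding factor gene, lowest at −0.25. Mitochondrial genes had 2 of 8 above 0 and mRNA processing genes 1 of 7, among them MUD1, a U1 snRNP protein gene, at −0.28. Over all genes 103 of 223 lay above 0, with 81 of these among the 96 ribosomal protein genes. The 127 genes outside the ribosomal protein list had a median of −0.12. Medians were −0.12 for cytoskeleton, −0.087 for mitochondrial and −0.036 for mRNA processing genes. These 3 lists were thus no lower than the genes outside the ribosomal protein list, and secretion genes were close to them.

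Intron indices in snu40 leaned the other way. Of 186 introns, 138 had an index above 0 (74.2%), against 94 of 196 in cus2 (48.0%) and 100 of 204 in hsp104 (49.0%). The intron probe itself was above 0 at closer shares, for 129 introns in snu40 (69.4%), 122 in cus2 (62.2%) and 136 in hsp104 (66.7%). NYV1, the v-SNARE of the vacuole, was highest, at 0.32 and 0.69, a mean of 0.50 ± 0.19. TFC3, the gene of the largest subunit of the RNA polymerase III factor TFIIIC, had 0.53 and 0.44, a mean of 0.48 ± 0.13. The arrays of TFC3 lay close together, those of NYV1 further apart. The highest introns were taken only among those with the same sign on both arrays, so the shared sign is a description.

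UBC8 followed at 0.28 and 0.58 (0.43 ± 0.17), LSM2, a gene of the ring that binds U6 RNA, at 0.17 and 0.66 (0.42 ± 0.19), and UBC13, which builds ubiquitin chains in DNA repair, at 0.12 and 0.70 (0.41 ± 0.19). SNC1, a v-SNARE gene of secretory vesicles, had 0.23 and 0.49. RUB1, the gene of a ubiquitin-like protein, had 0.29 and 0.39. In each of these introns both snu40 arrays were above 0, with array 2 the higher before any dye correction. The hsp104 arrays overlapped with the snu40 arrays at UBC8 (−0.20 and 0.28) and LSM2 (−0.17 and 0.38). Those of cus2 overlapped with them at UBC8, LSM2 and UBC13. Most of these introns were named for high snu40 values, and overlap over all introns was not counted. Their separation from the other strains is therefore a description.

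The probes behind the index stood on both sides of 0. For NYV1 in snu40 the intron probe averaged 0.23 and the exon probe −0.28, and for TFC3 0.26 and −0.23. For LSM2 the intron probe gave most of it, at 0.33 against an exon probe of −0.087. For UBC8 the intron probe was at −0.012 and the exon probe at −0.44, so that its index of 0.43 came from the exon probe. Over the 95 introns of ribosomal protein genes the median intron probe was 0.10 and the exon probe 0.045, and over the 91 others 0.029 and −0.12. The index of snu40 was thus lower in ribosomal protein genes (median 0.043) than in others (0.15).

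**Figure D3:**
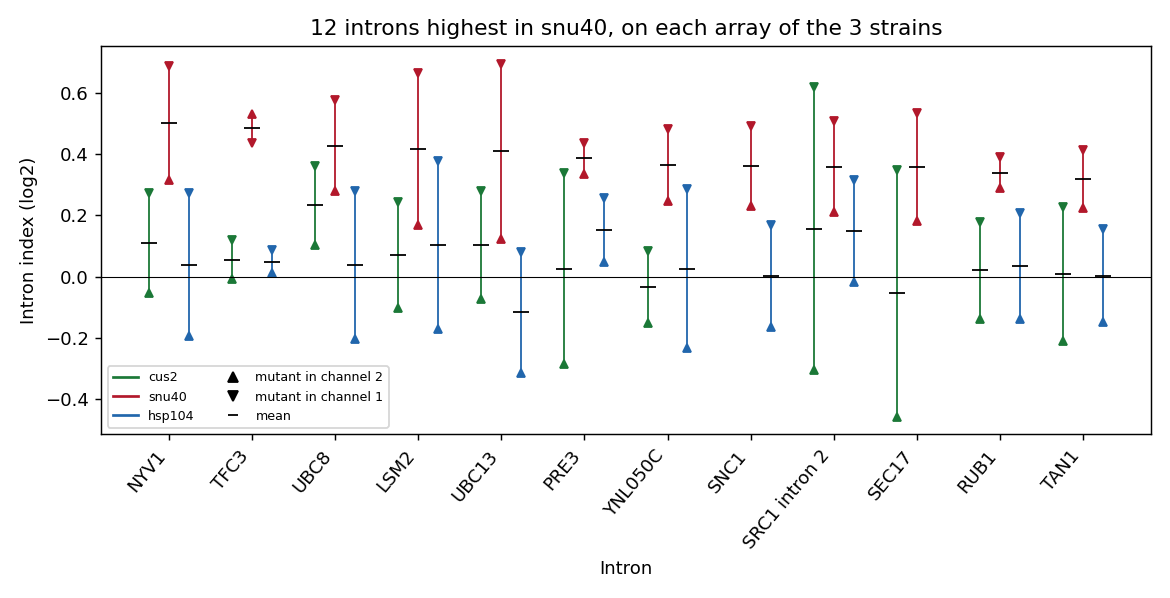
Intron index (log2) of the 12 introns that were highest in snu40 among those called with arrays weighted by spread, on each array of cus2 (green), snu40 (red) and hsp104 (blue). The 24 snu40 values run from 0.12 to 0.70. Most of these introns have 1 array on each side of 0 in cus2 and hsp104. The introns were chosen by their snu40 values, so the difference between strains is a description. SNC1 had no usable pair in cus2, nor SEC17 in hsp104.

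Among the lowest introns of snu40 were DBP2, RPS14B, RPL42B and RPL30. DBP2, a DEAD-box RNA helicase gene whose intron takes part in setting its own level, was at −0.21 and −0.14. RPS14B and RPL30, whose proteins bind their own transcripts and limit their expression, had −0.078 and −0.24, and −0.19 and −0.12. The lowest introns were taken only among those with the same sign on both arrays, so the shared sign is a description. Each 95% interval held 0. In hsp104 RPS14B was at 0.47 and 0.084 and RPL30 at 0.11 and 0.25, above 0 on both arrays. YRA1, the mRNA export factor gene with a regulated intron, was near 0, at −0.13 and 0.12 in snu40 and 0.035 and 0.0015 in cus2.

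In cus2 the highest introns were led by TUB3, the minor alpha-tubulin gene. It was at 0.054 and 0.94, uncorrected for dye, with a mean of 0.50 ± 0.19. CNB1, the regulatory subunit gene of the phosphatase calcineurin, had 0.54 and 0.36 (0.45 ± 0.17). NSP1, a nuclear pore protein gene, had 0.44 and 0.37 (0.41 ± 0.14), and RBS1 had 0.46 and 0.49 (0.48 ± 0.24). The arrays of NSP1 and RBS1 lay close together, those of TUB3 did not.

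Ribosomal protein introns were at the low end in cus2. Of 96, 22 had an index above 0, with a median of −0.078, against 0.063 for the 100 others. This was not particular to cus2. The gap of −0.14 was smaller than in the strains next in number of calls, −0.27 in nam8 and −0.18 in ecm2. It was −0.10 in snu40 and −0.070 in hsp104, while some strains, such as upf3 at 0.40, had the opposite sign. RPL29 had −0.57 and −0.11, and RPL28, an often studied intron, −0.50 and −0.094. RPL33B was lowest at −0.84 and 0.035, with arrays of opposite sign before any dye correction. On the probes themselves, ribosomal protein introns were at a median of −0.016 and their exon probes at 0.076, and other introns at 0.088 and 0.032.

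At exon values the 3 lowest genes in cus2 were YSC84 (−0.71 and −0.06, a mean of −0.39 ± 0.12), TDA5 (−0.51 and −0.21) and PAL2 (−0.46 and −0.16). Without dye correction, array 1 was also the lower at YSC84 in hsp104 (−0.53 and 0.095) and snu40 (−0.48 and 0.17). PHO85, a cyclin-dependent kinase gene active in phosphate signalling, had −0.39 and −0.11. Above 0 stood COX4, a cytochrome c oxidase subunit gene, at 0.73 and −0.11, and GIM5, a subunit gene of the chaperone prefoldin, at 0.61 and −0.033. The arrays of both genes lay on either side of 0.

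In hsp104 the highest introns were LSB3 at 0.55 and 0.12, COX5B at 0.13 and 0.49, RBS1 at 0.32 and 0.28, and RPS14B. LSB3 encodes an actin-binding protein related to Ysc84. RFA2 was lowest at −0.53 and −0.21 (−0.37 ± 0.18), followed by RPL2B (−0.35 and −0.29) and RPL2A (−0.29 and −0.27). RPL2A and RPL2B are near-identical copies whose probes may share RNA, so their values are not separate. No hsp104 intron reached an unadjusted p under 0.05. Of 97 ribosomal protein introns 33 were above 0, with a median of −0.047, against 0.023 for the 107 others.

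The 2 arrays of a strain resembled each other most in snu40. After removal of the dye term of the other strains, the exon values of its arrays correlated at r = 0.65 over 223 genes, against 0.28 in cus2 and 0.25 in hsp104. For intron indices r was 0.38 over 186 introns in snu40, 0.26 in cus2 and 0.24 in hsp104, and the other 15 strains ranged from 0.56 to 0.95. Junction indices gave 0.044, 0.030 and −0.032. These are correlations across genes of 1 array pair, which are not independent replicates and share probes and spots, and differences between strains were not tested.

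**Figure D4:**
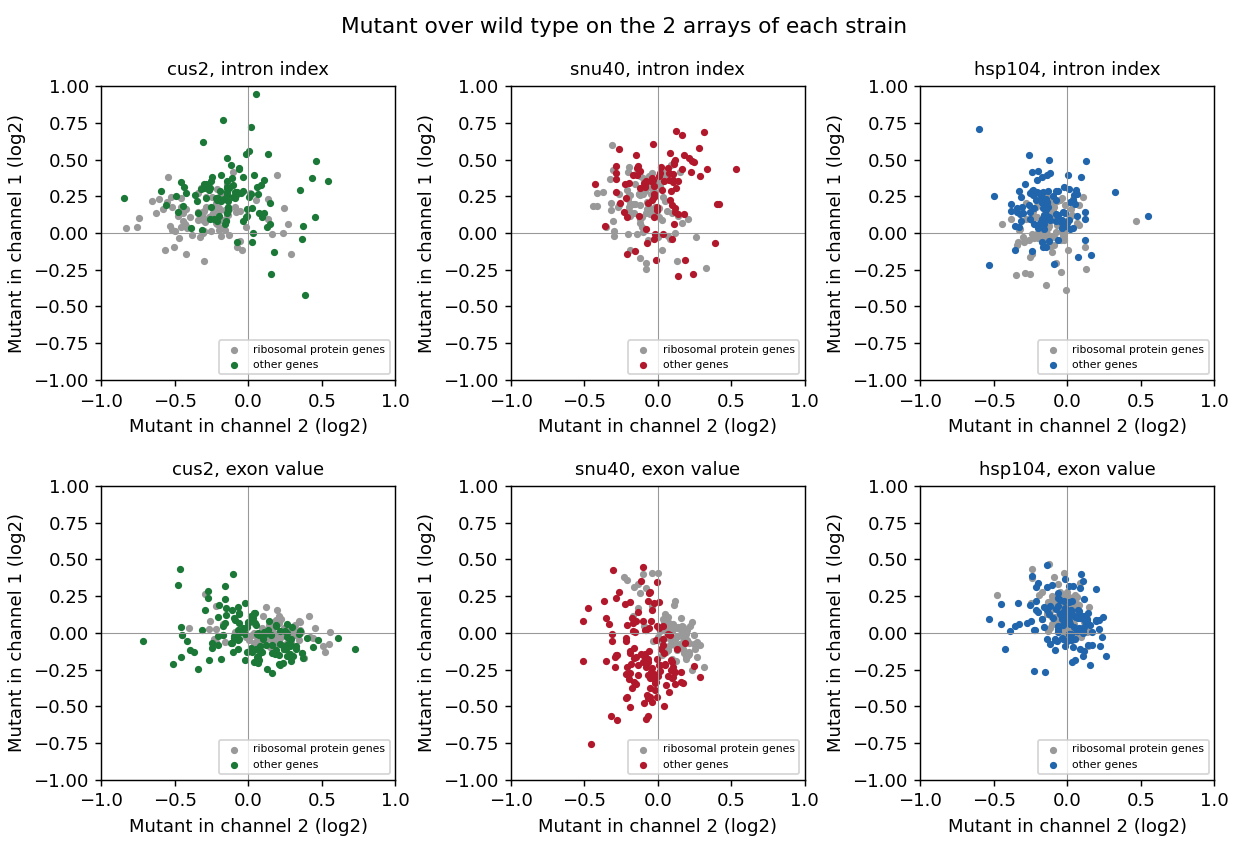
Mutant over wild type (log2) with the mutant in channel 2 (horizontal) and in channel 1 (vertical) for each intron (upper row) and exon value (lower row) in cus2, snu40 and hsp104. Grey points are ribosomal protein genes and coloured points the others. In snu40 the other genes lie lower and to the left of the ribosomal protein genes at exon values (medians −0.12 and 0.049), which is not seen in hsp104 (0.048 and 0.054).

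The spread between the 2 arrays, which enters the shared error of the fit, was small in snu40 and hsp104 and ordinary in cus2. Among 18 strains ranked from the tightest by the SD of the difference between arrays divided by 2, hsp104 was in rank 1 for introns and snu40 in rank 3, with SDs of 0.0867 and 0.0921 against a median of 0.136 in the 15 other strains. For exon values snu40 was in rank 1 (0.0620) and hsp104 in rank 3 (0.0656), against a median of 0.108. For cus2 the ranks were 7 and 10. The shared spread of the fit is therefore wider than the arrays of snu40 and hsp104 themselves.

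Counts in snu40 depended on how the spread was taken. When each array was weighted by its strain's spread, at introns 29 of 186 passed in snu40 (15.6%), all above 0, against 2 of 196 in cus2 (1.02%), NSP1 and CNB1, and 0 of 204 in hsp104 (0%). For exon values 67 of 223 passed in snu40 (30%), 10 above and 57 below 0, against 0 in cus2 (0%) and 0 in hsp104 (0%). Fitted on the 6 arrays alone, 9 introns (4.84%) and 9 exon values (4.04%) passed in snu40, and 2 exon values in cus2 (0.897%), YSC84 and TDA5. The weights come from 2 arrays per strain and are themselves uncertain.

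The 29 introns of snu40 spanned 0.21 to 0.50 with a median of 0.31, and both arrays were above 0 in 28 of them, the exception being CNB1. Of the 29, 3 were in ribosomal protein genes (RPL16A, RPS22B intron 2 and RPS11B), which held 95 of the 186 introns tested. Of the 17 introns of secretion genes tested, 7 were among the 29 (NYV1, SNC1, SEC17, BOS1, SEC27, ERD2 and YIP3), against 29 of 186 over all. The share over all is lowered by the ribosomal protein introns, 3 of 95, so it is a low reference for secretion genes. The list was not tested. PRE3, a catalytic subunit gene of the proteasome, was another. At the probes, 27 of the 29 intron probes were above 0, with a median of 0.14, and the exon probes had a median of −0.17. The same introns had a median index of 0.070 in cus2 (27 measured), 0.030 in hsp104 (28 measured) and 1.82 in snu66 (27 measured). They were chosen by their snu40 values, so the gap between snu40 and the other strains is a description.

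Ribosomal protein genes were 96 of the 223 exon values tested in snu40. They made up 0 of the 57 called below 0 and 8 of the 10 above 0, such as RPS6B at 0.21 and RPL19A at 0.17. DBP2 at 0.17 and REC107, a meiotic gene, also at 0.17, were the other 2. In the weighted fit the exon value of KEI1 was again lowest.

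Against strains lacking a core U2 protein or a tri-snRNP protein the contrast was wide. Between msl1 and cus2, both U2 mutants, 158 of 177 introns were higher in msl1 (89.3%) and 0 lower. EFM5 intron 2 was at 2.77 in msl1 against 0.18 in cus2, RUB1 at 2.25 against 0.020 and RPL16A at 2.19 against −0.0070. For exon values 43 of 220 were called (19.5%), all lower in msl1, led by RPS22B at −1.39 against 0.058. Since cus2 was chosen for its few calls, these counts are a description.

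Between snu66 and snu40, both mutants of particles with U5, 153 of 181 introns were higher in snu66 (84.5%) and 0 lower. YIP3, a vesicle-traffic gene, was at 3.02 in snu66 against 0.24 in snu40, VMA10, which encodes part of the proton pump of the vacuole, at 2.84 against 0.05, and RPL30 at 2.24 against −0.15. Since snu40 was chosen for its few calls, these counts too are a description. Exon values differed at 6 of 223 genes (2.69%), of which 4 were higher in snu66: SRC1 at 1.10 against −0.12, YNL050C at 0.77 against 0.032, KEI1, and MUD1 at 0.21 against −0.28.

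Among the 3 strains themselves no intron was called. Calls were 0 of 188 between cus2 and hsp104 (0%), 0 of 182 between snu40 and hsp104 (0%) and 0 of 180 between cus2 and snu40 (0%), with 1, 2 and 3 at an unadjusted p under 0.05 in limma. The 95% interval of the difference lay inside ±1 for 181, 169 and 165 introns. TUB3 gave the largest difference between cus2 and hsp104, at 0.73 ± 0.26, and the 2 arrays of cus2 are far apart there. For exon values 0 of 221 differed between cus2 and hsp104 (0%), with 3 at an unadjusted p under 0.05. KEI1 alone was called between snu40 and hsp104, 1 of 222 (0.45%), and between cus2 and snu40, 1 of 222 (0.45%).

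A dye difference was measurable on these arrays. The dye term is the part of a probe's ratio that stays with the channel when mutant and wild type are exchanged. Its coefficient is not among the values that chose the strains, although the fit behind them held a dye term. On the 6 arrays 220 of 689 probes had a dye term past an adjusted p of 0.05 in limma (31.9%), 59 higher in channel 2 and 161 lower. On the 30 arrays of the other strains 268 of 721 passed (37.2%). Over 689 probes the terms from these separate sets correlated at r = 0.888, and 147 probes passed in both, all 147 with the same sign. That is 66.8% of those called on the 6 arrays and, among probes tested in both, 57.4% of those called on the 30. The count on the 6 arrays was 109 without either cus2 array, 269 without either hsp104 array and 0 without either snu40 array, since leaving out 1 array takes its strain out of the estimate.

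The dye term differed by the kind of probe. Of 213 intron probes 96 were lower in channel 2 and 0 higher, with a median of −0.13. Junction probes had 29 higher and 25 lower of 219, and exon probes 27 and 27 of 221. Of 17 probes of intronless genes 1 was higher and 9 lower. The lowest terms were those of the galactokinase gene GAL1 at −0.50, the ACT1 intron probe at −0.48, the RPO26 intron probe at −0.47 and the TAN1 junction probe at −0.41. The highest was the PCH2 junction probe at 0.30 ± 0.07 (adjusted p = 0.000608, limma), which on the other 30 arrays was at 0.075 ± 0.070 (adjusted p = 0.418). Each array taken alone accordingly had most introns on 1 side of 0. With the mutant in channel 2, the intron index was below 0 for 156 of 196 introns in cus2, 117 of 186 in snu40 and 170 of 204 in hsp104. With the mutant in channel 1, it was above 0 for 174, 158 and 154.

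**Figure D5:**
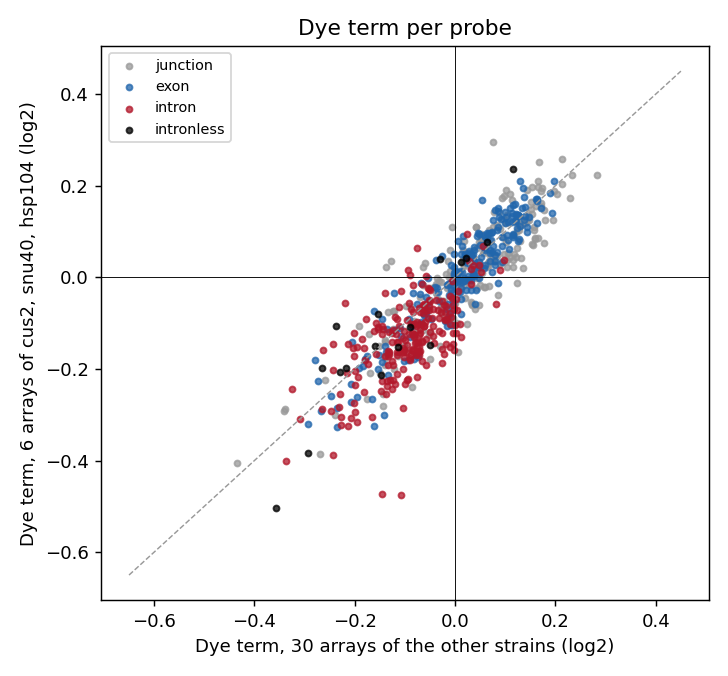
Dye term per probe (log2, channel 2 over channel 1) fitted on the 30 arrays of the other strains (horizontal) and on the 6 arrays of cus2, snu40 and hsp104 (vertical), coloured by probe role, without probes of uncertain role. The dashed line marks equal values. Points follow it (r = 0.888 over all 689 probes), and the intron probes lie mostly below 0 on both axes, with a median of −0.13 on the 6 arrays.

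The dye term of the other strains accounted for 17.2% to 58.3% of the variance of the deposited ratios over probes on the 6 arrays, with a median of 40.6%. These shares are squared correlations, and on the 6 arrays the correlation itself was positive, from 0.41 to 0.76. On the other 30 arrays the squared correlation reached 35.6%, with a median of 11.8%. There the correlation ranged from −0.57 to 0.60, so a share from a negative correlation is not variance that follows the dye term. The snu40 arrays held both extremes, 17.2% on array 1 and 58.3% on array 2. Single arrays of cus2 were at 38.2% and 43.0%, and those of hsp104 at 50.1% and 24.3%.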

How the data were processed

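The authors deposited a log2 ratio for each of 3456 spots per array. The sources used here do not give how it was made from the scan (background, scaling). Zeros and blanks were treated as missing (26 to 237 zeros and 227 to 557 blanks among named spots of the 6 arrays), and the 4 spots of a probe were averaged. The median SD between spots of a probe was 0.0858 to 0.144. No scaling was added. No intensities were used, so the probes above background are not known. Base 2 was checked on differences of recurring values within arrays: 108 of 1562 matched log2 ratios of whole numbers to within 2e-08.

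Channel 2 over channel 1 was taken as the likely direction. Genes came from the annotation given with the array. Probe roles were inferred from order: junction, intron and exon for 216 genes, and a junction and an intron probe per intron before the exon probe for 7 genes with 2 introns. The 5 intronless genes joined the exon values. A feature was tested in a strain when both arrays were usable. All 36 arrays entered 1 limma fit (limma 3.58.1, R 4.3.3; lmFit, eBayes) with 1 coefficient for each mutant and 1 dye term, and Benjamini-Hochberg adjustment within a strain and measure. Strain differences were contrasts in that fit. The procedure was tested on simulated data.

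The strains, the gene lists and the genes named were chosen with earlier results of these data known. Named genes followed a rule: the 4 highest and lowest introns and the 3 highest and lowest junctions and exon values with the same sign on both arrays, features at an unadjusted p under 0.05, those called between strains, the largest contrasts and a list of often-studied introns. RPL33B, PRE3, the members of the 29 introns and 67 exon values of snu40, and list extremes were named after their values were seen. Alternatives were scaling, the dye term, the arrays fitted, the spread, the treatment of spots, the threshold and each array left out.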

Additional observations from a re-analysis of the deposited data

Results flagged for a closer look

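The exon value of KEI1 differed between strains under the same comparison with wild type. It was lower in snu40 than in hsp104 by a fitted difference of −0.66 ± 0.14 (limma contrast, adjusted p = 0.0138), with both snu40 arrays below both hsp104 arrays. Cus2 minus snu40 gave 0.62 ± 0.14 (limma, adjusted p = 0.0335), again with no overlap of arrays. Because the strains were chosen by calls against the same wild type, these differences are not independent of the choice. Groups of 2 arrays were too small for a check for outlying samples.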

How the results depend on the processing

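Over the 18 main results, 275 of 293 alternative values stayed within 1.5 times the count, or within the spread, of the reported value. That share says little, since many settings could not move a value. Centring cancels in the indices, and leaving out another strain's array or the dye term leaves a strain's fitted values unchanged. The spread of a median was the SD of its 2 array medians, which hold the dye difference. In hsp104, calls stayed at 0 for introns, junctions and exon values under every alternative run. Weighting arrays by spread gave 2 introns in cus2, 29 introns and 67 exon values in snu40, 1 intron between cus2 and hsp104 and 19 between snu40 and hsp104. Fitting the 6 arrays alone gave 9 introns and 9 exon values in snu40 and 2 exon values in cus2. In snu40, exon values called were 3 under either centring, 0 without a dye term, and 0 to 1 with an array left out, being 0 without either snu40 array. The KEI1 exon value of snu40 itself ranged from −0.62 to −0.57 over 16 settings, with an adjusted p under 0.05 in limma in 13 and up to 0.139. The probes with a dye term on the 6 arrays numbered 102 at a threshold of 0.01 and 0 to 269 with an array left out, being 109 without a cus2 array and 0 without a snu40 array; leaving out an array drops its strain from the dye estimate. Medians near 0 turned sign with 1 array left out: the intron index of cus2 went from −0.0086 to 0.071 without array 1, the exon values of snu40 from −0.017 to 0.0061 without array 2, and those of hsp104 from 0.052 to −0.032 without array 2. Single named values gave 49 of 2007 settings beyond the spread of their arrays.

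No paired analysis was possible because each array already holds mutant and wild type together, and replicate numbers mark only the channel order, which the dye term already takes up.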
